A study of Arabidopsis thaliana with 16 samples.

Results

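The 10 genes described here are 3 phytochrome-interacting factors (PIF3, PIF4 and PIF5) and 7 genes used as markers of shade growth (PIL1, ATHB2, HFR1, PAR1, YUC8, YUC9 and IAA29). They were chosen by locus identifier from the authors' annotation of the arrays, and each was measured by 1 probe set among the 28403 analysed, which represent 26334 loci. All 10 were kept in every comparison, since no filter on low signal was set. Each of these probe sets holds 17 to 29 probes, and the annotation marks none as cross-hybridising. PIF5 and ATHB2 carry the symbols PIL6 and HB-2 in the deposited annotation. A further 2 probe sets whose annotation reads PAR1 share only the symbol and were left out.

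Whole rosettes of Arabidopsis thaliana were measured on 16 Affymetrix gene arrays. Plants grew for 3 weeks at 80 µmol photons per square metre and second, then for 10 days in low light (LL, 8 µmol). They were either moved to high light (HL, 800 µmol) or kept in LL. The titles give 60 min and the treatment protocol 10 min for the time in HL. The 12 arrays of single replicates, of 15 plants each, hold 3 of sap3 in HL, 3 of sap3 in LL, 3 of WT in HL and 3 of WT in LL. The other 4 arrays are pools of 45 plants, which the titles describe as combining 3 independent biological replicates, 1 each labelled cml49 in HL, cml49 in LL, WT in HL and WT in LL. WT is the accession Col-0, sap3 is a knockout of the zinc finger protein gene SAP3 and cml49 a knockout of the calmodulin-like protein gene CML49. Every group, the LL groups included, had passed through the 10 days at 8 µmol. The position of each insertion and the number of lines per mutant are not given in the sources used here, nor whether a pool holds plants that were also hybridised singly.

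PIFs are basic helix-loop-helix (bHLH) transcription factors that promote elongation growth in dark and shade. Light turns the photoreceptor phytochrome B into its active form, which binds PIFs and leads to their phosphorylation and breakdown, and a low ratio of red to far-red light, as under a leaf canopy, reverses this. Released PIFs raise the transcripts of shade markers, among them auxin synthesis genes and the HLH proteins that in turn bind PIFs and restrain the response. The shift studied here changes the amount of light, and transcript levels do not show the level of the PIF proteins.

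3 arrays opposed their light label. A score placed each array on a scale from 0, the level of the LL pools, to 1, that of the HL pools, by the median of 247 probe sets that differed by at least 2 on the log2 scale in both pool pairs, leaving out the 10 genes and the related pathway genes. The other HL arrays scored 0.918 to 0.998 (4 arrays) and the other LL arrays 0.028 to 0.057 (5 arrays). Against that, WT HL replicate 2 scored 0.065, sap3 HL replicate 3 scored 0.024 and sap3 LL replicate 2 scored 0.956. Results are therefore given over all 12 single arrays as labelled and over the 9 arrays whose score fits the label. The arrays were left out for their light response, so p-values over the 9 set a difference against the spread and are not independent evidence that light moved a gene.

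The targeted genes also bear on the labels. SAP3 had log2 signals of 5.06, 5.28 and 3.74 in sap3 HL replicates 1, 2 and 3 and of 4.21, 6.98 and 4.05 in sap3 LL replicates 1, 2 and 3. WT HL replicates 1, 2 and 3 gave 6.14, 3.94 and 6.48, and WT LL replicates 1, 2 and 3 gave 4.85, 4.84 and 5.14. Over the 9 arrays sap3 was the lower genotype in each light. By contrast, the array labelled sap3 LL replicate 2 lay above every WT array. The array labelled WT HL replicate 2 lay below every other WT array, so the genotype labels of both are in doubt on this probe set. CML49 read 4.23 in HL and 3.97 in LL in the pools labelled cml49, against 3.3 in HL and 2.77 in LL in the pools labelled WT, so the pools run against their genotype labels on this probe set. The deposited ratios of the authors' table match averages of these arrays, to within 0.0081, only if the averages named wt take in both pools labelled cml49 and those named SAP3ko both pools labelled WT. SAP3 itself read 6.01 in HL and 4.76 in LL in the pools labelled cml49. In the pools labelled WT it read 6.43 in HL and 4.9 in LL. Each pool thus lay above the sap3 arrays of the same light among the 9. The true genotype of the pools was not tested. Whether the probe sets lie outside the disrupted parts of the 2 genes is not known here.

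Defining markers of leaf tissue were present. 5 of 6 leaf markers lay above the array median of 4.37 to 4.41, with the Rubisco small subunit gene RBCS1A at a mean log2 signal of 13.21 and the exception LHCA1 at 3.57. Flower markers lay above it in 0 of 5 cases and root markers in 1 of 6, the root beta-glucosidase gene PYK10 at 8.52. Guard cell markers lay above it in 3 of 3. In such bulk tissue, fewer cells of a type and less RNA per cell cannot be told apart.

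**Figure D1:**
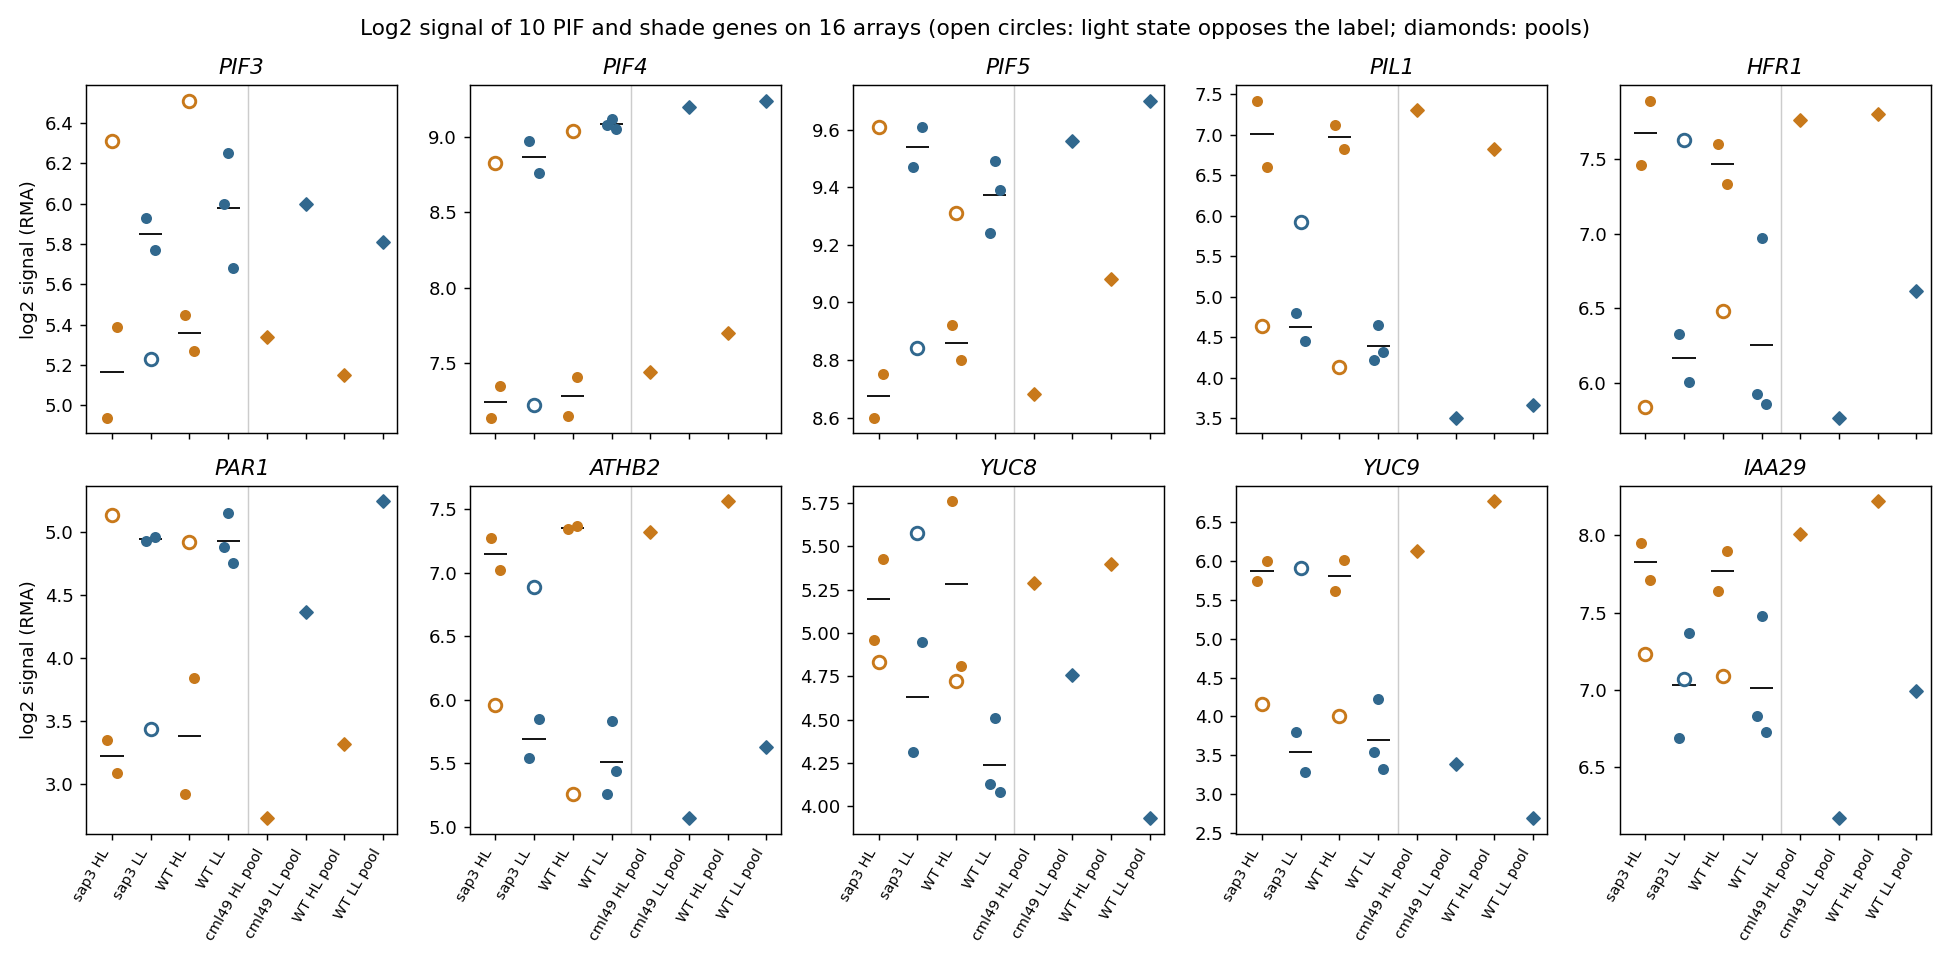
Log2 RMA signal (vertical axis) of each of the 10 genes in its own panel, with 1 point per array for sap3 HL, sap3 LL, WT HL and WT LL and for the 4 pools; the 3 arrays whose light score opposes the label are drawn apart. Apart from those 3 arrays, PIF4 lies between 7.14 and 7.70 in HL and between 8.76 and 9.24 in LL, and PIL1 between 6.60 and 7.42 in HL and between 3.51 and 4.80 in LL.

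The 10 genes split into 2 sets by light. Over the 9 arrays and in both pool pairs, PIL1, ATHB2, HFR1, YUC8, YUC9 and IAA29 (6 genes) were higher in HL, and PIF3, PIF4, PIF5 and PAR1 (4 genes) were lower, in each of 4 pairs of groups. A single sign in all 4 pairs was seen in 36.9% of all probe sets. Of the 10 genes, 7 were called in sap3 over the 9 arrays (4 higher, 3 lower; limma, adjusted p under 0.05), against 7.57% of all probe sets (4.09% higher, 3.47% lower). In WT, 6 were called (4 higher, 2 lower), against 9.13% of all probe sets (4.99% higher, 4.14% lower). HL and LL values did not overlap for 10 of 10 genes in sap3 and for 10 of 10 in WT over the 9 arrays, where 45.5% and 38.6% of all probe sets did not overlap.

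Over the 12 arrays as labelled, 0 of the 10 genes and 0 of 28403 probe sets (0%) were called by limma in sap3, and likewise 0 of the 10 genes and 0 probe sets (0%) in WT. Unadjusted p-values under 0.05 were found for 891 probe sets in sap3 and 1751 in WT, among them 0 of the 10 genes in sap3 and 1 in WT, YUC8. Groups did not overlap for 0 of 10 genes in sap3 (6.64% of all probe sets) and for 2 of 10 in WT, PIF4 and YUC8 (13% of all probe sets). The median log2 difference of the 10 genes over the 9 arrays was 0.68 in sap3, against -0.03 for all probe sets, and 0.90 in WT, against -0.02. These medians hide the 2 directions. Each replicate is a sample of 15 plants, and the labels of the 12 single arrays number the replicates without saying whether they were grown apart, so the p-values measure the spread between these samples.

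**Figure D2:**
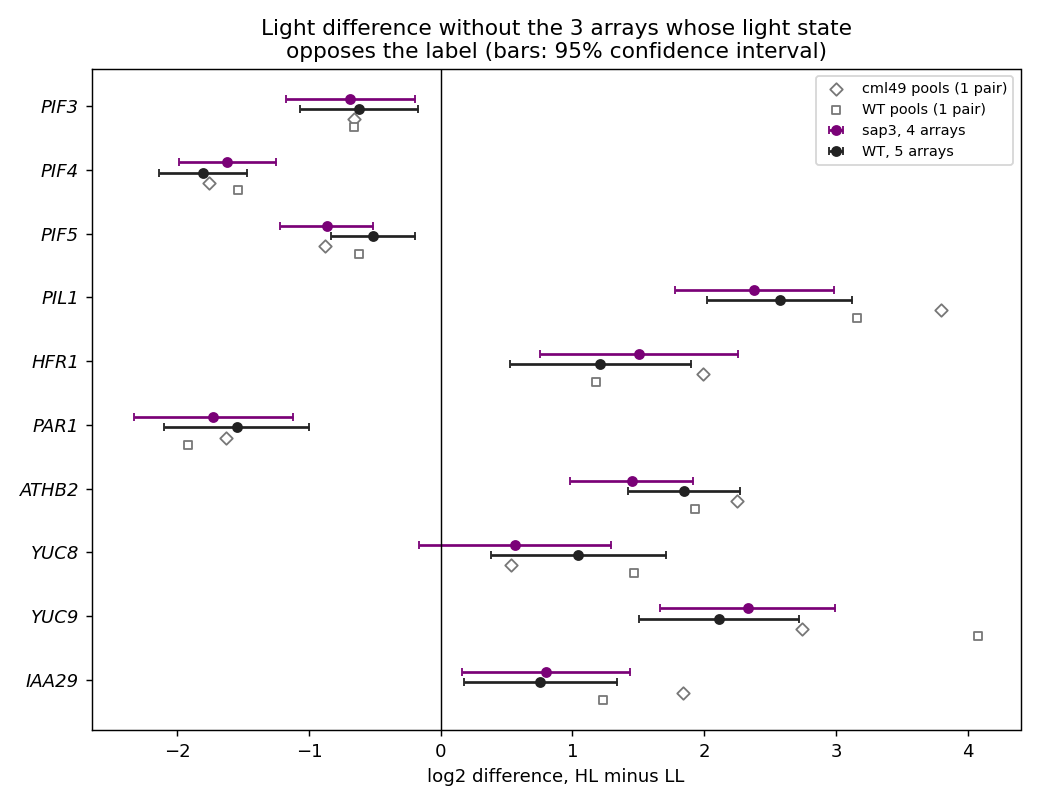
HL minus LL log2 difference of each of the 10 genes over the 9 arrays whose light score fits the label, with 95% intervals from limma for sap3 and WT, and the single differences of the pools labelled cml49 and WT without intervals. 6 genes lie right of 0 in all 4 and 4 genes lie left of it.

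PIF4, a main driver of elongation and of warmth-induced growth, gave the largest difference by light relative to its error among the 10 genes (AT2G43010, chromosome 2, 17886427 to 17889050, plus strand; coordinates are as the deposited annotation gives them, without a stated genome build). Its log2 signal was 7.14 and 7.35 in sap3 HL replicates 1 and 2, against 8.97 and 8.76 in sap3 LL replicates 1 and 3. In WT it was 7.15 and 7.41 in HL replicates 1 and 3, against 9.08, 9.12 and 9.05 in LL replicates 1, 2 and 3. Every HL value in these arrays lay more than 1 log2 unit below every LL value. PIF4 fell by 1.62 in sap3 (SE 0.16, limma adjusted p = 0.000248, 3.07-fold) and fell by 1.80 in WT (SE 0.15, adjusted p = 5.8e-05, 3.49-fold). In the 3 opposed arrays PIF4 read 8.83 in sap3 HL replicate 3, 7.22 in sap3 LL replicate 2 and 9.04 in WT HL replicate 2. With them in place the difference was -0.54 in sap3 (95% interval -1.81 to 0.72) and -1.22 in WT (-2.48 to 0.05), with adjusted p-values of 0.994 and 0.713.

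PIF5, the close relative of PIF4 that acts beside it in shade (AT3G59060, chromosome 3, 21827978 to 21830507, minus strand), moved less. The sap3 arrays gave 8.60 and 8.75 in HL replicates 1 and 2, against 9.47 and 9.61 in LL replicates 1 and 3. WT arrays gave 8.92 and 8.80 in HL replicates 1 and 3, against 9.24, 9.49 and 9.39 in LL. PIF5 fell by 0.86 in sap3 (SE 0.16, limma adjusted p = 0.00776), while the WT difference of -0.51 (SE 0.14) missed the threshold at an adjusted p = 0.0549. The sap3 call was lost without sap3 HL replicate 1 (0.0612), without sap3 LL replicate 3 (0.0582) or with only the compared groups in the fit (0.0514). Opposed arrays gave 9.61 in sap3 HL replicate 3, 8.84 in sap3 LL replicate 2 and 9.31 in WT HL replicate 2.

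PIF3, which acts in seedlings as they leave the dark (AT1G09530, chromosome 1, 3076582 to 3079539, plus strand), was called in neither genotype. It read 4.94 and 5.39 in sap3 HL replicates 1 and 2, against 5.93 and 5.77 in sap3 LL replicates 1 and 3. In WT it read 5.45 and 5.27 in HL replicates 1 and 3, against 6.0, 6.25 and 5.68 in LL. The groups did not overlap, with differences of -0.68 in sap3 (95% interval -1.18 to -0.19, limma adjusted p = 0.103) and -0.62 in WT (-1.06 to -0.17, adjusted p = 0.0966). Opposed arrays gave 6.31 in sap3 HL replicate 3, 5.23 in sap3 LL replicate 2 and 6.51 in WT HL replicate 2. Both of these HL-labelled arrays lay above every LL array of the single replicates.

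PIL1, a bHLH protein of the PIF family and one of the fastest shade-induced transcripts, had the largest difference of the 10 genes in each genotype over the 9 arrays, close to that of YUC9 in sap3 (AT2G46970, chromosome 2, 19295490 to 19297826, minus strand). Its log2 signal was 7.42 and 6.60 in sap3 HL replicates 1 and 2, against 4.80 and 4.46 in sap3 LL replicates 1 and 3. In WT the values were 7.12 and 6.82 in HL replicates 1 and 3, against 4.22, 4.65 and 4.32 in LL. The lowest HL value, 6.60, lay well above the highest LL value, 4.80. PIL1 rose in sap3 by 2.38 (SE 0.27, limma adjusted p = 0.00049, 5.21-fold) and in WT by 2.57 (SE 0.25, adjusted p = 0.000135, 5.95-fold). The opposed arrays gave 4.64 in sap3 HL replicate 3 and 4.13 in WT HL replicate 2, both at the level of the LL arrays, while sap3 LL replicate 2 at 5.92 lay between the groups. As labelled, the difference was 1.16 in sap3 (95% interval -0.58 to 2.90) and 1.63 in WT (-0.11 to 3.36). The LL means of PIL1 over the 9 arrays, 4.63 in sap3 and 4.4 in WT, lie near the array median.

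ATHB2, a class II homeodomain-leucine zipper factor whose transcript is a standard marker of low red to far-red light (AT4G16780, chromosome 4, 9449114 to 9450743, plus strand), was also higher in HL. The sap3 arrays gave 7.27 and 7.02 in HL replicates 1 and 2, against 5.54 and 5.85 in LL replicates 1 and 3. WT arrays gave 7.34 and 7.37 in HL replicates 1 and 3, against 5.26, 5.83 and 5.44 in LL. The lowest HL value stood more than 1 log2 unit above the highest LL value. ATHB2 rose in sap3 by 1.45 (SE 0.21, limma adjusted p = 0.00202) and in WT by 1.84 (SE 0.19, adjusted p = 0.000225). In the opposed arrays it read 5.96 in sap3 HL replicate 3, 6.89 in sap3 LL replicate 2 and 5.26 in WT HL replicate 2.

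HFR1 and PAR1 encode HLH proteins that bind PIFs and hold back shade growth, and both are known as shade-induced transcripts, yet they lay on opposite sides here. HFR1 (AT1G02340, chromosome 1, 465718 to 467844, minus strand) read 7.46 and 7.89 in sap3 HL replicates 1 and 2, against 6.33 and 6.01 in sap3 LL replicates 1 and 3. In WT it read 7.60 and 7.33 in HL replicates 1 and 3, against 5.93, 6.97 and 5.86 in LL. The groups did not overlap, but WT LL replicate 2 at 6.97 came close to the HL values. HFR1 rose in sap3 by 1.5 (SE 0.34, limma adjusted p = 0.0226) and in WT by 1.21 (SE 0.31, adjusted p = 0.0360). Both calls hang on single arrays. The sap3 call was lost without any 1 of its 4 arrays, sap3 HL replicates 1 and 2 and sap3 LL replicates 1 and 3 (adjusted p of 0.0594 to 0.136). The WT call was lost without WT HL replicate 1 (0.220), WT HL replicate 3 (0.123), WT LL replicate 1 (0.102) or WT LL replicate 3 (0.104), and with only the compared groups in the fit (0.0683). HFR1 in the opposed arrays was 5.84 in sap3 HL replicate 3, 7.63 in sap3 LL replicate 2 and 6.48 in WT HL replicate 2.

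PAR1 (AT2G42870, chromosome 2, 17836416 to 17837250, minus strand) read 3.35 and 3.09 in sap3 HL replicates 1 and 2, against 4.93 and 4.96 in sap3 LL replicates 1 and 3. WT arrays gave 2.92 and 3.84 in HL replicates 1 and 3, against 4.88, 5.15 and 4.75 in LL. All HL values were under the array median and all LL values above it. PAR1 fell by 1.73 in sap3 (SE 0.27, limma adjusted p = 0.00325) and fell by 1.55 in WT (SE 0.25, adjusted p = 0.00301). Opposed arrays gave 5.13 in sap3 HL replicate 3, 3.44 in sap3 LL replicate 2 and 4.92 in WT HL replicate 2.

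Of the auxin genes, YUC9 changed most. YUC8 and YUC9 encode flavin monooxygenases of the last step of auxin synthesis and are known PIF targets in shade, and IAA29 encodes an Aux/IAA repressor of auxin signalling that PIFs and auxin induce. YUC9 (AT1G04180, chromosome 1, 1104623 to 1105988, plus strand) read 5.74 and 6.0 in sap3 HL replicates 1 and 2, against 3.80 and 3.28 in sap3 LL replicates 1 and 3. In WT it read 5.61 and 6.01 in HL replicates 1 and 3, against 3.54, 4.23 and 3.32 in LL. The LL values were all under the array median and the HL values all above it. YUC9 rose in sap3 by 2.33 (SE 0.30, limma adjusted p = 0.00102, 5.03-fold) and in WT by 2.11 (SE 0.27, adjusted p = 0.000839, 4.33-fold). Opposed arrays gave 4.16 in sap3 HL replicate 3, 5.91 in sap3 LL replicate 2 and 4.00 in WT HL replicate 2.

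YUC8 (AT4G28720, chromosome 4, 14192583 to 14194256, plus strand) was called in neither genotype. Its values were 4.96 and 5.43 in sap3 HL replicates 1 and 2, against 4.31 and 4.95 in sap3 LL replicates 1 and 3, so that 0.01 parted the groups. WT gave 5.76 and 4.81 in HL replicates 1 and 3, against 4.13, 4.51 and 4.08 in LL. The differences were 0.56 in sap3 (95% interval -0.16 to 1.29, limma adjusted p = 0.398) and 1.04 in WT (0.38 to 1.71, adjusted p = 0.0583). The WT value was called without WT HL replicate 3 (adjusted p = 0.0245). Over the 12 arrays the WT difference was 0.86 (0.12 to 1.59, adjusted p = 0.713). Opposed arrays gave 4.83 in sap3 HL replicate 3, 5.58 in sap3 LL replicate 2 and 4.72 in WT HL replicate 2.

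IAA29 (AT4G32280, chromosome 4, 15583387 to 15584769, plus strand) was not called either. It read 7.95 and 7.71 in sap3 HL replicates 1 and 2, against 6.69 and 7.37 in sap3 LL replicates 1 and 3. In WT it read 7.64 and 7.90 in HL replicates 1 and 3, against 6.83, 7.48 and 6.73 in LL. The differences of 0.80 in sap3 (95% interval 0.16 to 1.44, limma adjusted p = 0.141) and 0.76 in WT (0.18 to 1.34, adjusted p = 0.117) lay in the same direction. Without WT LL replicate 2, the highest of the WT LL arrays, the WT value was called (adjusted p = 0.0391). Opposed arrays gave 7.23 in sap3 HL replicate 3, 7.07 in sap3 LL replicate 2 and 7.09 in WT HL replicate 2.

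The arrays that oppose their label did so in nearly all of the 10 genes, none of which entered the score. In sap3 HL replicate 3 and in WT HL replicate 2, 10 of 10 genes lay nearer the LL mean of the same genotype label than the HL mean. In sap3 LL replicate 2, 9 of 10 lay nearer the HL mean. On a scale with the LL mean at 0 and the HL mean at 1, the exception IAA29 stood at 0.05 there, PIL1 at 0.54 and YUC8 at 1.68, past the HL mean. PIF3 stood at -0.67 in sap3 HL replicate 3 and at -0.86 in WT HL replicate 2, past the LL mean. The arrays were picked for their light state, and the matching share of all probe sets was not counted. The counts are therefore no independent evidence on the 10 genes. Whether these arrays were swapped with one another was not tested.

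**Figure D3:**
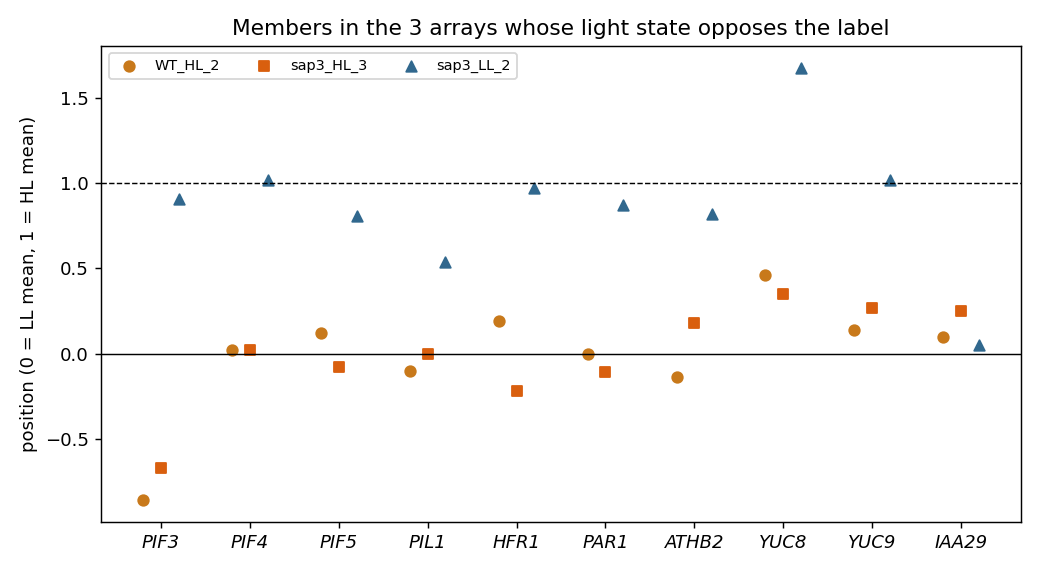
Position of each of the 10 genes in the 3 arrays whose light score opposes the label, with the LL mean of that genotype label at 0 and the HL mean at 1. Both arrays labelled HL lie near or below 0 for most genes, and sap3 LL replicate 2 lies near 1 except for IAA29 at 0.05, PIL1 at 0.54 and YUC8 at 1.68.

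Between genotypes, 0 of the 10 genes were called in either light over the 12 or the 9 arrays, where limma called 0 of 28403 probe sets (0%), apart from 1 (0.00352%) for HL over the 9. At an unadjusted p under 0.05 there were 812 and 1272 probe sets in HL over the 12 and the 9 arrays and 1283 and 1706 in LL, with 0 of the 10 genes among them. In HL over the 9 arrays, sap3 minus WT was largest for HFR1, at 0.21 (95% interval -0.54 to 0.96), and ATHB2, at -0.21 (-0.68 to 0.26). With 1 array left out, the largest size of the 10 in HL ran from 0.21 to 0.62 (0.62 without WT HL replicate 1, 0.565 without WT HL replicate 3, 0.45 without sap3 HL replicate 2 and 0.425 without sap3 HL replicate 1). For LL the largest was YUC8, at 0.39 (-0.28 to 1.06), and without sap3 LL replicate 1 the largest size was 0.71. PIF4 differed by -0.04 in HL (-0.40 to 0.33) and by -0.22 in LL (-0.55 to 0.12). The sap3 and WT values did not overlap for 1 of the 10 genes in LL, PIF4, over the 9 and the 12 arrays. In HL they did not overlap for 2 genes over the 9 arrays, PIF5 and ATHB2. The matching shares of all probe sets were not counted, so these counts are no result about the named genes. Over the 9 arrays the intervals leave room for genotype differences of up to about 1 log2 unit in HFR1 and YUC8, and less in PIF4. They are wider over the 12 arrays, where sap3 minus WT was largest in HL for PIF3 and PIL1, at -0.20 (-1.02 to 0.63) and 0.20 (-1.54 to 1.93), and in LL for PIF4, at -0.77 (-2.03 to 0.50).

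A different light response in the 2 genotypes was called by limma in 0 of 28403 probe sets (0%), and so in 0 of the 10 genes, over the 12 and over the 9 arrays. Unadjusted p-values under 0.05 numbered 744 and 1192, with 0 of the 10 genes among them. Over the 9 arrays the response of sap3 minus that of WT was -0.48 for YUC8 (95% interval -1.47 to 0.51), -0.40 for ATHB2 (-1.03 to 0.24) and -0.35 for PIF5 (-0.83 to 0.13). PIL1 gave -0.19 (-1.01 to 0.62) and YUC9 gave 0.22 (-0.68 to 1.12). Without WT HL replicate 3 the largest size among the 10 genes was 0.955. The largest over the 12 arrays was that of YUC8, at -0.73 (-1.77 to 0.31). PIF5 was thus called in sap3 and not in WT without a called difference between their responses.

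Pools gave the same 2 directions, with 1 array per group and so no test. In the pools labelled cml49, 7 of 10 genes differed by at least 1 log2 unit between HL and LL, against 6.36% of all probe sets. In the pools labelled WT 8 of 10 did, against 7.75%. YUC9 read 6.13 in HL and 3.39 in LL in the pools labelled cml49, and 6.77 in HL and 2.69 in LL in those labelled WT, a difference of 2.74 and 4.08. For PIL1 the pools labelled cml49 gave 7.31 in HL and 3.51 in LL, and those labelled WT 6.83 in HL and 3.67 in LL. PIF4 read 7.44 in HL and 9.20 in LL in the pools labelled cml49, and 7.70 in HL and 9.24 in LL in those labelled WT. The genes under 1 log2 unit were PIF3 and PIF5 in both, and YUC8 (0.53) in the pools labelled cml49.

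Between the pools of one light level, 0 of 10 genes differed by at least 1 log2 unit, against 1.07% of all probe sets in HL and 1.3% in LL. The pool labelled cml49 minus that labelled WT was largest in HL for YUC9, at -0.64, and PAR1, at -0.59. In LL the largest were PAR1 at -0.88, HFR1 at -0.85, YUC8 at 0.83 and IAA29 at -0.82. A size of 0.8 in place of 1 counts these 4 genes in LL. The share of all probe sets at 0.8 was not counted, so this count is no result about the 10 genes.

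The authors' deposited table gives unadjusted p-values under 0.05 for 1 of the 10 genes in its comparison SAP3ko-stress vs SAP3ko (4.44% of all probe sets) and for 8 of 10 in wt-stress vs wt-ctrl (13.9%). In the authors' deposited table the 1 gene in SAP3ko-stress vs SAP3ko was IAA29, with a log2 ratio of 0.75 (p = 0.025). For wt-stress vs wt-ctrl the authors' deposited table gives PIL1 a log2 ratio of 2.17 (p = 0.0325), YUC9 one of 1.82 (p = 0.0145) and PIF4 one of -1.35 (p = 0.0201). That comparison leaves PIF3 and PAR1 above 0.05. Between genotypes the authors' deposited table has 0 of the 10 genes under 0.05 in HL (3.36%) and 0 in LL (4.36%). Its averages hold 4 arrays a side, the opposed arrays and the pools included. Those named wt match only with the pools labelled cml49, and those named SAP3ko only with the pools labelled WT. They are thus not the genotype groups used above.

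Of 76 further genes of the pathway listed in 9 groups, 70 could be matched by symbol, and over the 9 arrays 10 rose and 2 fell in HL in sap3 (7.57% of all probe sets called), while 11 rose and 6 fell in WT (9.13%). Over the 12 arrays 0 of the 70 were called in any comparison by limma, and 0 between genotypes over the 9. Unadjusted limma p-values under 0.05 by light over the 12 arrays were found for 3 of the 70 in sap3 and 6 in WT. Of all 28403 probe sets, 891 and 1751 had such values. Between genotypes over the 9 arrays there were 0 of the 70 in HL and 4 in LL, against 1272 and 1706 of all probe sets. For a different light response there were 2 of the 70, against 1192 of all probe sets. The share called by light over the 9 arrays is 12 of 70 in sap3 and 17 of 70 in WT. Median differences of the 70 genes were 0.03 in sap3 and 0.04 in WT, against -0.03 and -0.02 for all probe sets.

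The list nearest the PIFs moved in 1 gene. Of 5 related bHLH factors, PIF1, which represses seed germination in the dark, fell by 1.95 in sap3 (limma adjusted p = 0.000209) and fell by 2.01 in WT (SE 0.18, adjusted p = 7.62e-05). It was the only one of the 5 called in either genotype. In WT, PIL2 gave 0.53 and SPT, a carpel and germination factor, gave -0.23, neither called.

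Among 7 HLH antagonists and partners, 2 rose in each genotype and 0 fell. PRE1 and PRE5, small HLH proteins without a DNA-binding region that promote elongation, rose in sap3 by 1.2 and 0.96 and in WT by 0.69 (limma adjusted p = 0.0268) and 0.68 (adjusted p = 0.0368). KDR, another of the kind, was at 0.75 in WT and not called. Of 7 class II HD-Zip factors 0 were called in sap3 and 2 in WT. At an unadjusted limma p under 0.05 there were 4 in sap3 and 4 in WT. Of all 28403 probe sets, 5538 in sap3 and 5803 in WT had such values. In WT, HB4, the relative of ATHB2, rose by 1.11 (limma adjusted p = 0.00341) and HAT3 fell by 0.96 (adjusted p = 0.0404).

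Auxin synthesis beyond YUC8 and YUC9 showed 0 of 10 genes called by limma in sap3 and 0 of 10 in WT. At an unadjusted limma p under 0.05 there were 0 in either, against 5538 of 28403 probe sets in sap3 and 5803 in WT. The smallest p-values in WT were those of YUC2, YUC4 and YUC7, with log2 differences of 0.30, -0.29 and 0.24. Of 14 early auxin response genes, IAA3 rose in sap3 by 0.85 and in WT by 0.84 (limma adjusted p = 0.00461), and IAA4 fell by 1.2 in sap3. GH3.5, which conjugates auxin to amino acids, was at -0.77 and IAA17 at 0.61 in WT, neither called.

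Of 10 genes for phytochromes, their nuclear transport and their kinase substrates, 3 rose and 0 fell in sap3, and 3 rose and 2 fell in WT. PHYB, which encodes the photoreceptor that removes PIFs in light, rose in sap3 by 2.06 and in WT by 2.18 (limma adjusted p = 1.75e-05). PKS2, a phytochrome kinase substrate, rose in WT by 1.02, while FHY1, which carries phytochrome A into the nucleus, fell by 1.17 in WT. PHYA, PHYC and PHYD were called in neither genotype. Of 5 evening complex and COP1/SPA genes, 2 rose in each genotype, and 0 fell in sap3 against 2 in WT. SPA1, a partner of the ubiquitin ligase COP1, rose in WT by 1.34 (adjusted p = 0.00077), and ELF3 and ELF4, clock proteins that repress PIF4 and PIF5 in the evening, fell by 1.07 and 1.30 in WT. No gene of these lists had a called difference of light response between sap3 and WT.

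Of 7 gibberellin and DELLA genes 1 was called, RGL2, a DELLA growth repressor, which rose in sap3 by 1.77 and in WT by 1.95 (limma adjusted p = 0.00258). RGA1 (0.27) and GA20OX2 (0.16) were not called in WT. Of 5 other growth targets of PIFs, CKX5, a cytokinin oxidase, rose in sap3 by 2.07 and in WT by 2.02 (adjusted p = 0.00421). XTH33 (-0.54) and BR6OX2 (-0.28) were not called in WT.

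**Figure D4:**
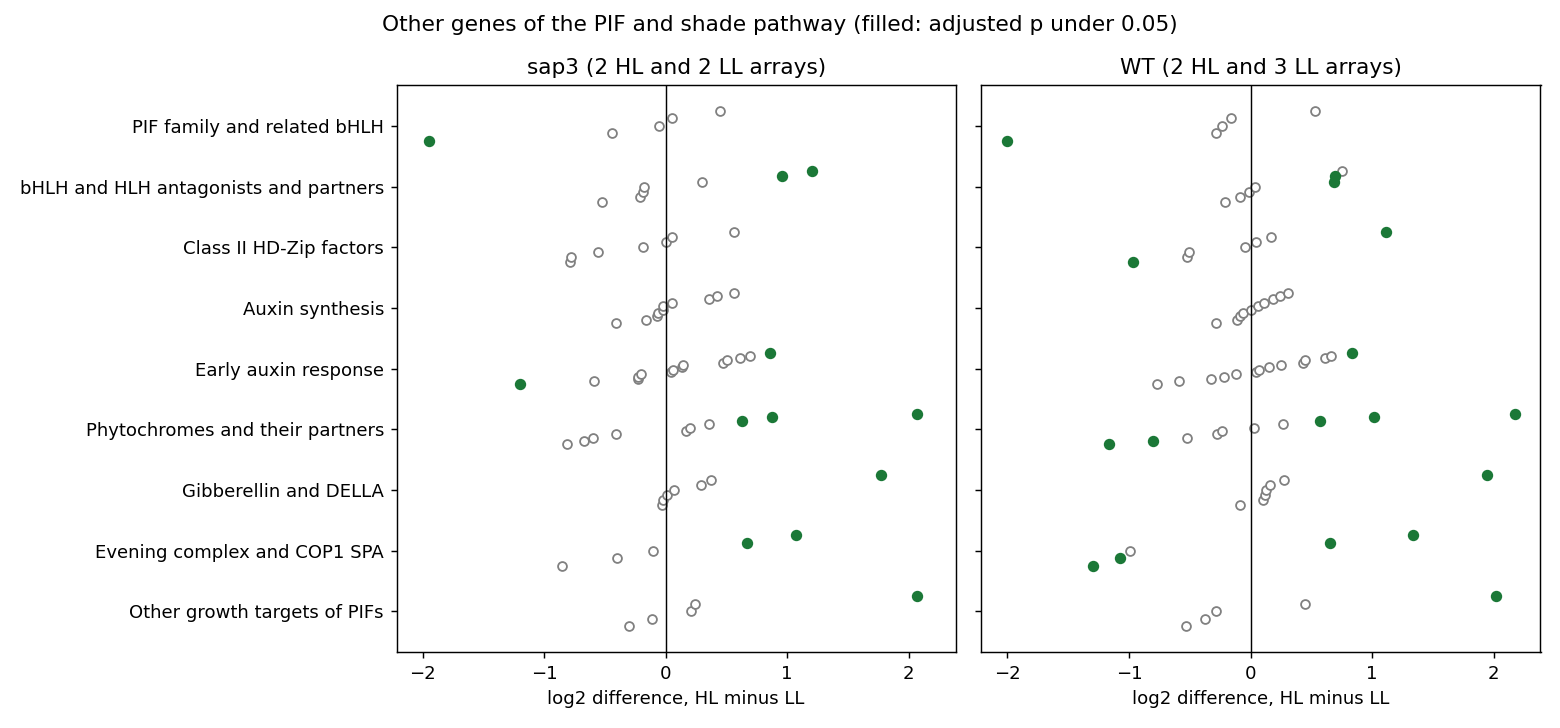
HL minus LL log2 difference (horizontal axis) of each of the 70 further pathway genes by list over the 9 arrays, for sap3 and WT, with called genes filled. PIF1 lies near -2, and PHYB and CKX5 near 2, in both genotypes.

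WT LL replicate 2 was the highest of the 3 WT LL arrays for 10 of 10 genes, those lower in HL included, while 33.7% of all probe sets were highest there.

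Transcripts with the most similar profile were sought for the 7 genes that ranged over at least 2 log2 units across the 16 arrays, by the root mean square difference of profiles centred on their mean. PIF4 was nearest to RbcX1, a chaperone of Rubisco assembly, at 0.139, then CCL at 0.155 and RD19, a cysteine protease, at 0.162, against a spread of its own of 0.853. ATHB2 was nearest to MTM1 at 0.189 and to the flavonoid enzyme genes F3H at 0.20 and TT4, chalcone synthase, at 0.249. IAA29 was nearest to AT3G57540 at 0.209, TT5, chalcone isomerase, at 0.266 and the expansin gene EXPA20 at 0.277.

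PAR1 was nearest to AT3G28310 at 0.245, CCL at 0.263 and AT1G12440 at 0.264, and HFR1 to AT1G61890 at 0.269, DAR6 at 0.273 and ABCI20 at 0.282. YUC9 was nearest to CYTC-2, a cytochrome c gene, at 0.328, AT5G63130 at 0.365 and AT2G19310 at 0.383. PIL1 was nearest to AT5G59480 at 0.392, AT1G04570 at 0.413 and HSP81-3, a cytosolic HSP90 gene, at 0.444, against a spread of its own of 1.36. Within the 10 genes the closest pairs were PIF3 with PIF5 at 0.28, PIF4 with PAR1 at 0.34 and HFR1 with ATHB2 at 0.396. The 16 arrays share the same few conditions, so a small difference says only that transcripts followed the same arrays.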

How the data were processed

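Per the submitters' processing notes, the authors made the deposited log2 signals with RMA in Affymetrix Expression Console; version, probe library and genome build are not given in the sources used here. Of 28501 probe sets, 28403 were analysed (77 rescue and 21 ribosomal RNA sets left out). The workbook's ratios and p-values are the authors' own per the file headers, which name no adjustment. Its 16 signal columns were not used. The number of arrays limits the precision.

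Groups came from the sample labels. The 12 single arrays were fitted with limma 3.58.1 in R 4.3.3 (lmFit and eBayes, 4 group means, two-sided, Benjamini-Hochberg over all probe sets, adjusted p under 0.05), and again without the 3 opposed arrays; the code was tested on simulated data. Pools were compared by difference alone. Alternatives were other priors, array weights, a replicate block, other normalisations, a filter on dim probe sets, 0.01 as threshold, the compared groups alone and each array left out. Deviations from the labelled group means correlated at -0.633 to 0.527 between same-numbered replicates, with 4 of 18 pairs over 0.1. The opposed arrays enter these deviations, so the values cannot show whether the numbers pair samples.

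The genes, lists and light score were chosen with earlier results of these data known. Named genes are the 10, the 3 closest profiles of each gene ranging over at least 2, and up to 3 genes per pathway list with the smallest WT p over the 9 arrays; PRE1, PRE5, IAA3, IAA4 and other sap3 calls beside them were taken after values were seen. 6 listed symbols found no match. Sequences are not printed.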

Additional observations from a re-analysis of the deposited data

How the results depend on the processing

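Over the 12 arrays as labelled, 0 of the 10 genes were called under each alternative except leaving out the 3 opposed arrays, which gave 7 in sap3 and 6 in WT, 2150 and 2594 probe sets in all, and 1 probe set for sap3 minus WT in HL. Leaving out 1 array gave 0 to 1 probe sets in WT by light and 0 to 1 for sap3 minus WT in HL. Of the member differences over the 12 arrays, PIF3 ranged over -0.48 to 0.21 in sap3 and -0.62 to 0.00 in WT when 1 array was left out (0.0467 without sap3 LL replicate 1, 0.2067 without sap3 HL replicate 1 and 0.0033 without WT HL replicate 3). YUC8 in sap3 ranged over -0.19 to 0.44 (-0.1917 without sap3 LL replicate 1, -0.0517 without sap3 HL replicate 2), and HFR1 in sap3 over -0.01 to 1.02 (-0.0067 without sap3 HL replicate 2). No other member changed sign, but PIL1 ranged over 0.56 to 1.95 in sap3 and 1.08 to 2.57 in WT, YUC9 over 0.45 to 1.76 and 1.11 to 2.11, PAR1 over -1.22 to -0.20 and -1.55 to -0.55, PIF4 over -1.09 to -0.22 and -1.80 to -0.86, ATHB2 over 0.38 to 1.05 and 0.79 to 1.84, and PIF5 over -0.63 to -0.13 and -0.51 to -0.26. The largest genotype difference among the 10 genes ranged over 0.20 to 0.99 in HL and 0.39 to 1.16 in LL, and that of the light response over 0.40 to 1.41.

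Over the 9 arrays the genes called numbered 5 to 8 in sap3 and 5 to 9 in WT across the alternatives. For all probe sets, an adjusted p under 0.01 gave 1106 in sap3 and 1350 in WT, and fitting only the groups compared gave 1201 in sap3. Leaving out 1 array gave 1211 (without sap3 HL replicate 1; 1300 without sap3 LL replicate 3) to 2029 in sap3, and 1231 (without WT HL replicate 1; 1261 without WT HL replicate 3) to 2607 in WT. WT calls were gained for PIF5, YUC8 and IAA29 with a mean-dependent prior (adjusted p of 0.00627, 0.0312 and 0.0495), for PIF5 and YUC8 with array weights, for PIF5 with repeated quantile normalisation, and for PIF3, PIF5 and YUC8 with fewer probe sets tested after removing dim ones. PIF3 was also called in sap3 after that filter (0.0464). Sap3 minus WT in LL gave 5 probe sets with a mean-dependent prior, 1 with median centring, 2 without dim probe sets and 0 to 1 with 1 array left out. In HL it gave 0 without dim probe sets and 0 to 2 with 1 array left out. The cause of these shifts was not tested.

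With a replicate block over the 9 arrays, 8 genes were called in sap3 (PIF3 gained, adjusted p = 0.0176) and 6 in WT, with 1686 and 1973 probe sets in all, 0 probe sets for sap3 minus WT in HL and a largest member difference there of 0.4823. Over the 12 arrays the block gave 0 calls in each comparison, and it ended no call of the 10 genes. Whether the numbers pair the samples is not known here. A size of 0.8 in place of 1 gave 4 genes between the LL pools, without a count of all probe sets at that size. With 2 or 3 arrays per group, the 95% intervals of the light differences of PIL1, HFR1, PAR1, YUC8, YUC9 and IAA29 over the 9 arrays span more than 1 log2 unit. PAR1 and, in LL, also YUC8, YUC9 and PIL1 lie near or below the array median, and no measure of background signal was used here.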
